A study of Mus musculus with 6 samples.

Results

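The 10 genes described here encode fibrillar and associated collagens together with the glycoprotein and the proteoglycans that are laid down with them: *Col1a1*, *Col3a1*, *Col5a2*, *Col6a1*, *Col6a2*, *Col13a1*, *Col18a1*, *Fn1*, *Dcn* and *Lum*. Their members on the array are the probe sets, each a short group of probes within 1 gene, whose only annotated symbol is 1 of these names. This gave 360 of the 58919 probe sets tested, in 10 of 5017 genes. These 5017, called all genes below, are the genes present in the deposited rows and may be only a part of the array. *Col5a2* had 57 of them, *Col1a1* 52, *Col3a1* 51, *Fn1* 48, *Col18a1* 43, *Col13a1* 39, *Col6a1* 31, *Col6a2* 28, *Dcn* 8 and *Lum* 3. The samples were total RNA of mouse brain on 6 arrays, and both groups carried the amyloid transgenes of the APPPS1 line. The 3 control arrays have the genotype APPPS1-FVB and the 3 others, titled knockout, the genotype APPPS1-FVBxABCC1. *Abcc1* encodes an export pump for glutathione conjugates. The APPPS1 transgenes are driven by a neuronal *Thy1* promoter, so both groups model amyloid deposition made by neurons. The labels give no age, sex or brain region, and do not say whether each array is 1 animal.

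Brain tissue proper holds little fibrillar collagen. In the brain, type I and type III collagen, decorin and lumican are made mainly by fibroblasts of the meninges, of the choroid plexus stroma and of the sheath around larger vessels. Collagen chains assemble as trimers with a triple helix: types I, III and V form banded fibrils, type VI forms beaded filaments that tie fibrils to cells, type XIII spans the cell membrane, and type XVIII lies in basement membranes. Fibronectin is a glycoprotein that binds both collagens and integrins, and decorin and lumican are small proteoglycans that coat fibrils and set their width. How much meninges each brain sample held is not given in the labels, and in bulk tissue fewer cells of a type and less RNA per cell cannot be told apart.

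Across the 6 arrays the tested probe sets had median log2 signals from 7.04 to 7.09, and the array's control features had medians from 4.09 to 4.16 in controls and from 4.2 to 4.29 in knockouts. The 75th percentile of the control features, 5.91, is used below as a mark of a dim probe set. By that mark 215 of the 360 probe sets were above it and 145 were dim. The brain origin of the samples could be checked with *Syt1* and *Map2*, the measured neuronal genes of 11 chosen, which were above the mark at 11.6 and 10.5 in controls. *Abcc1* was not analysed here, so the genotype labels could not be checked with it.

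Averaged over its probe sets, every 1 of the 10 genes had a lower mean in the knockouts than in the controls, by log2 differences from -0.30 (*Col1a1*) to -0.01 (*Col6a1*). None of these differences passed the test. With limma, 0 of the 10 genes and 0 of all 5017 genes (0%) had an adjusted p below 0.05. At a raw p below 0.05 there were 3 of 10 on the lower side (*Fn1*, *Col1a1* and *Dcn*), against 6.12% of all genes, and 0 of 10 on the higher side, against 7.95%. The median of the 10 was -0.12 and the median of all genes was -0.00444, with 51.8% of all genes below 0. All 10 were also lower after quantile normalization (median -0.13), where 57.3% of all genes were lower. The same held after median centring (median -0.14), where 61.2% of all genes were lower. Centring moved every difference by -0.02, so it could not turn a gene that was already lower. The 3 knockout values lay below the 3 control values in *Col1a1* and *Fn1*, 2 of 10 against 8.87% of all genes, and above them in 0 of 10, against 11.4%. Some of the 10 genes varied alike over the 6 arrays, so these counts do not stand for 10 separate observations. Pearson's r was 0.98 for *Col1a1* with *Dcn* and 0.91 for *Col1a1* with *Col3a1*. It was above 0.7 in 8 of the 45 pairs and below 0 in 5. These r values include the difference between the groups. With each group's mean taken out, r was above 0.7 in 10 pairs and below 0 in 10. It was then 0.95 for *Col1a1* with *Dcn* and 0.88 for *Col1a1* with *Col3a1*, but -0.05 for *Col1a1* with *Fn1*.

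Probe set by probe set, the lower side held 261 of the 360, or 72.5%, against 47.9% of all tested probe sets. The median log2 difference was -0.14 for the 360 and 0.01 for all. In limma's fit of single probe sets 0 of 360 passed, against 3 of 58919 (0.00509%). At a raw p below 0.05 there were 39 on the lower side, 10.8% of the 360 against 2.94% of all, and 2 on the higher side, 0.556% against 4.75%. The 3 knockout values were all below the 3 control values at 38 of 360, against 5.52% of all, and all above them at 4, against 7.94%. Among the 215 brighter probe sets 169 were lower, or 78.6%, where 45.6% of all brighter probe sets were. Among the 145 dim ones it was 92, or 63.4%, against 52.3%. Probe sets of 1 gene share the gene's transcripts, so these counts do not stand for 360 separate measurements of the genotype.

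**Figure D1:**
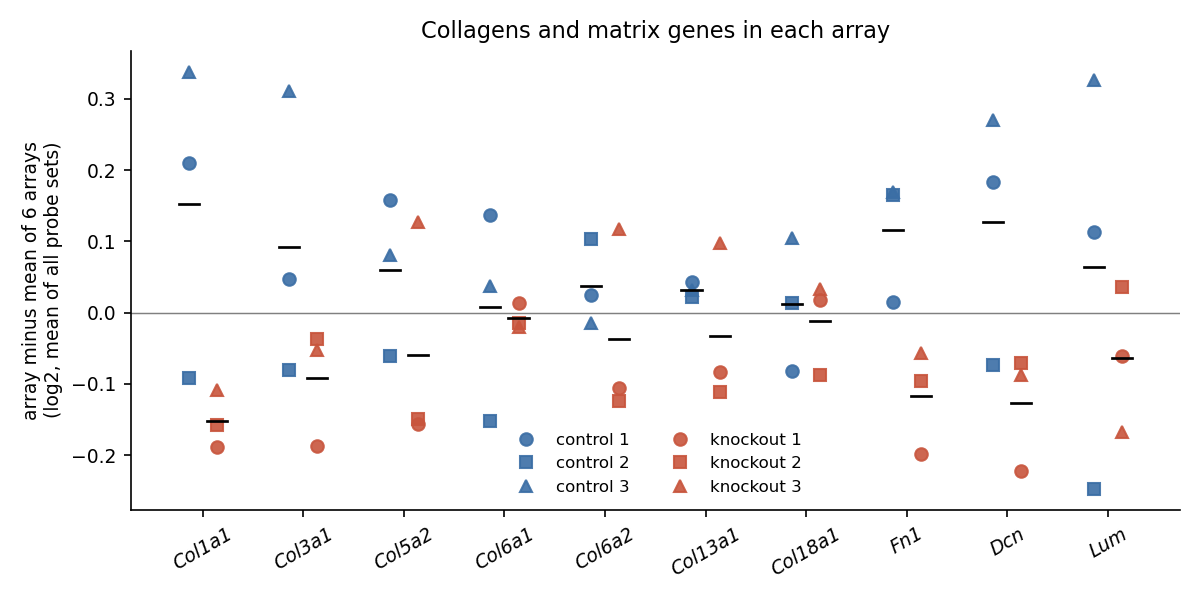
Each point is 1 array: the gene's mean log2 signal over all its probe sets, minus the mean of the 6 arrays (y axis, log2), for the 10 genes (x axis); blue is control, red is knockout, the symbol gives the replicate number and black bars are group means. In *Col1a1* and *Fn1* the 3 red points lie below the 3 blue ones. Control 2 is the lowest control in *Col1a1*, *Col3a1*, *Col5a2*, *Col6a1*, *Col13a1*, *Dcn* and *Lum*.

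Of the fibril-forming chains, *Col1a1*, which encodes the main chain of type I collagen, had the largest difference of the 10 genes. Its mean log2 signal was 6.98, 6.68 and 7.11 in control 1, 2 and 3 and 6.58, 6.61 and 6.66 in knockout 1, 2 and 3. The knockouts were tightly grouped and lay just under control 2, while control 1 and control 3 stood higher. The group means were 6.92 ± 0.22 (SD, n = 3) and 6.62 ± 0.04 (SD, n = 3), a difference of -0.30 log2 units (SE 0.10) or 1.23-fold (limma adjusted p = 0.274). The sign was shared along the gene, with 47 of 52 probe sets lower and a median of -0.25 among the earlier and among the later probe sets in the ID order. Probe set 10380422 differed most, from 4.87, 4.71 and 5.42 in the controls to 3.79, 3.54 and 3.36 in the knockouts. That is a difference of -1.44 log2 units (SE 0.21, limma adjusted p = 0.424) at a dim probe set whose groups do not overlap. The highest difference of the gene was 0.24 at probe set 10380440. Its brightest probe set, 10380457, differed by only -0.03 (SE 0.12), with overlapping groups.

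*Col3a1* encodes type III collagen, the partner of type I in pliable tissue. Its mean signal was 5.91, 5.78 and 6.17 in the controls and 5.67, 5.82 and 5.81 in the knockouts, a difference of -0.18 log2 units (SE 0.10, limma adjusted p = 0.441). Control 2 lay among the knockouts, so the groups overlap. Of 51 probe sets 34 were lower, with a median of -0.06, and 26 of the 51 were dim. The 3 with a raw p below 0.05 were all on the lower side. Of all tested probe sets, 2.94% had one on that side and 4.75% on the higher side. The lowest, the dim 10346039, was at 5.75, 5.72 and 4.94 in controls and 4.87, 3.79 and 4.70 in knockouts. That is a difference of -1.02 log2 units (SE 0.35). The highest, 10346064, was set by 1 array: control 2 read 4.0 there and the other 5 arrays between 5.66 and 7.01, which gave 0.45 (SE 0.78). Without control 2 that probe set was at -0.45. The brightest, 10346050, was at -0.003 (SE 0.20).

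*Col5a2* encodes a chain of type V collagen, which starts fibrils and limits their width, and it is the neighbour of *Col3a1* on chromosome 1. It was at 5.14, 4.92 and 5.06 in controls and at 4.82, 4.83 and 5.11 in knockouts. Knockout 3 lay within the control range, and the difference was -0.12 (SE 0.09, limma adjusted p = 0.586). Most of this gene was dim, with only 13 of 57 probe sets above the control features' mark. Of the 57, 35 were lower, and the 7 with a raw p below 0.05 were all lower, at -1.23 to -0.26. The share of all tested probe sets was 2.94% on that side and 4.75% on the higher side. The extreme probe sets of *Col5a2* were both dim, 10354360 at -1.23 (SE 0.38) and 10354358 at 0.84 (SE 0.51). The latter rested on knockout 3, at 6.95 where the other 5 arrays read 4.69 to 5.38. The brightest, 10354350, was at -0.06 (SE 0.10).

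For orientation, the bases before the annotated start of *Col3a1*, a member of the group that varied alike over the arrays, and of *Col6a1*, the gene with the smallest difference, are given from RefSeq (GRCm38.p6). Each is 250 bases, 5′ to 3′ on the strand of the gene, at chr1:45311288-45311537 on the plus strand for *Col3a1* and at chr10:76726045-76726294 on the minus strand for *Col6a1*. Capitals mark the letters TATAAA, a core promoter motif; CCAAT, a common proximal promoter motif, was searched too, both on either strand.
Col3a1: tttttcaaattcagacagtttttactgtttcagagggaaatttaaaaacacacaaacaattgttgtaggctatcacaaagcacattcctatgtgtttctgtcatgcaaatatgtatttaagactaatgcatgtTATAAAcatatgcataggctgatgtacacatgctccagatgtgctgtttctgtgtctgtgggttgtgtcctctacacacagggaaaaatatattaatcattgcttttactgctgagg
Col6a1: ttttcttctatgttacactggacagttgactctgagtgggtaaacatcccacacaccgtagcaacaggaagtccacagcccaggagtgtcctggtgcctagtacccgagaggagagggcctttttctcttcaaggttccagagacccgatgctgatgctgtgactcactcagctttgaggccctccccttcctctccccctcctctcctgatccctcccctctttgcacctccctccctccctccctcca

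The stretch of *Col3a1* is rich in A and T and holds 1 TATAAA, which begins 117 bases before the start, and 0 CCAAT. That of *Col6a1* holds neither and is rich in C and T near its end. Among 32851 promoter stretches of the same length, 12.4% hold TATAAA and 33.8% hold CCAAT on either strand. Such stretches were at hand for 5 of the 10 genes, *Col3a1*, *Col6a1*, *Col6a2*, *Col13a1* and *Col18a1*. *Col13a1* also held 1 TATAAA, *Col18a1* held 1 CCAAT in 1 of its stretches, and *Col6a2* held neither. A link between these letters and the differences was not tested.

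*Fn1*, fibronectin, had the smallest raw p of the 10 genes. It was at 8.6, 8.75 and 8.76 in the controls and 8.39, 8.49 and 8.53 in the knockouts. All 3 knockouts were below all 3 controls, and here control 2 was not low. The means were 8.70 ± 0.09 (SD, n = 3) and 8.47 ± 0.07 (SD, n = 3), a difference of -0.23 log2 units (SE 0.06) or 1.18-fold (limma adjusted p = 0.231). Of 48 probe sets 45 were lower and 46 were above the control features' mark. A raw p below 0.05 was found at 14, all of them lower. Of all tested probe sets, 2.94% had one on that side and 4.75% on the higher side. The differences of the 14 ran from -0.53 to -0.28. The lowest was probe set 10355433, at 8.32, 8.15 and 8.36 in controls and 7.78, 7.65 and 7.82 in knockouts, a difference of -0.53 (SE 0.10). Probe set 10355405 was at 9.12, 9.21 and 9.26 against 8.76, 8.71 and 8.79, or -0.44 (SE 0.08). Neither pair of groups overlaps, though both limma adjusted p values were above the threshold, at 0.520 and 0.50. Probe sets 10355427 and 10355422 had differences of -0.48 (SE 0.12) and -0.44 (SE 0.11). The brightest, 10355412, was at -0.08 (SE 0.09) and the highest, 10355450, at 0.14 (SE 0.12).

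**Figure D2:**
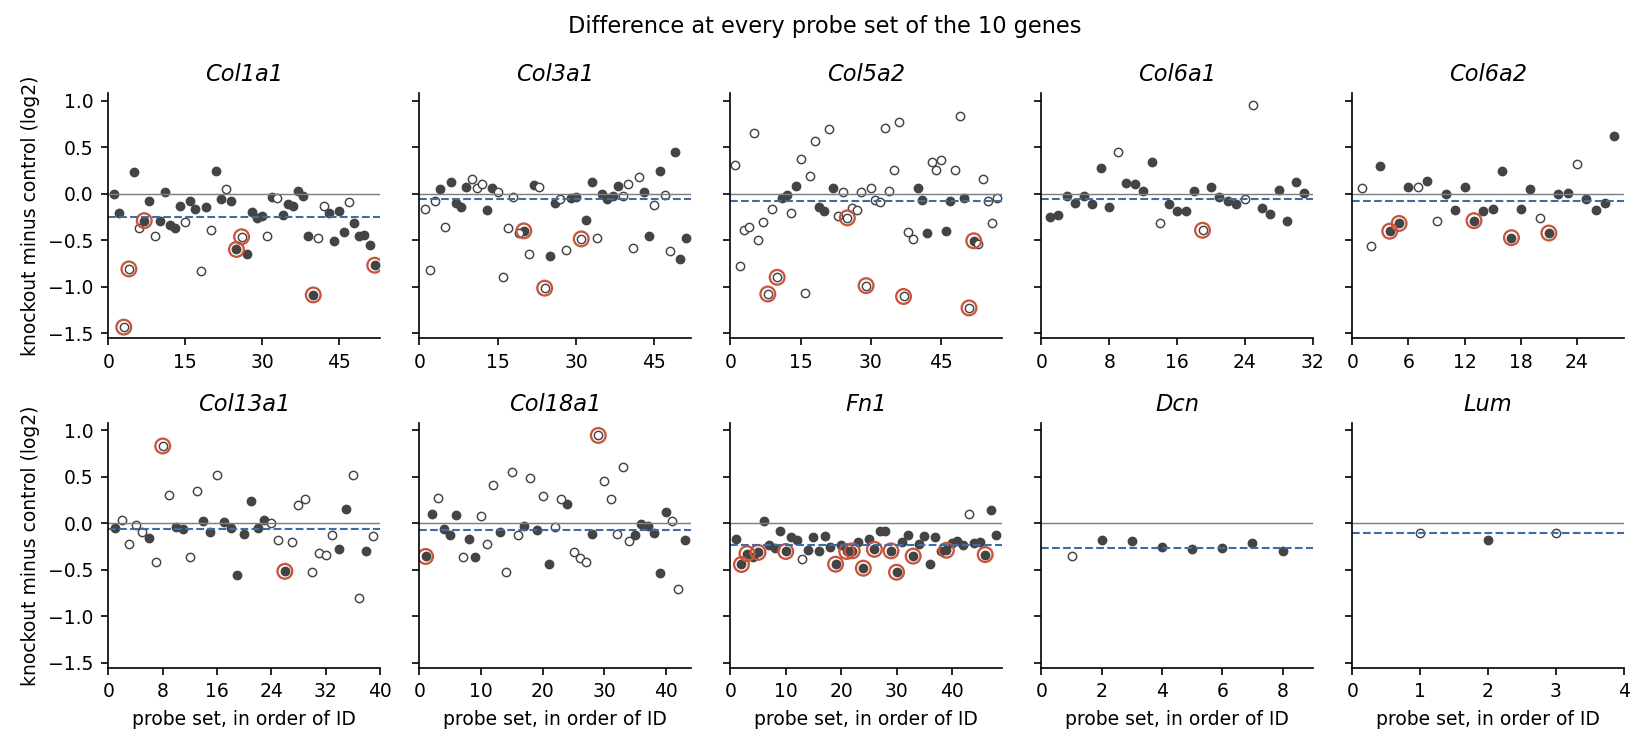
Each panel is 1 gene and each point 1 probe set: knockout minus control (y axis, log2) against its place in the order of probe set IDs (x axis); filled points are above the 75th percentile of the control features, open points are dim, red rings mark a raw limma p below 0.05 and the dashed line is the gene's median. Points of *Fn1* and *Dcn* lie in a narrow band, with 45 of 48 and 8 of 8 below 0, while those of *Col5a2*, *Col13a1* and *Col18a1* scatter to both sides and the widest are open.

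The small proteoglycans *Dcn* (decorin) and *Lum* (lumican) are neighbours on chromosome 10. *Dcn* was at 9.40, 9.14 and 9.49 in controls and at 8.99, 9.15 and 9.13 in knockouts. Control 1 and control 3 were above every knockout, and control 2 was level with knockout 2 and knockout 3. The difference was -0.25 (SE 0.09), 1.19-fold (limma adjusted p = 0.296). All 8 of its probe sets were lower, from -0.35 at the dim 10365975 to -0.18 at 10365976, and the brightest, 10365977, was at -0.19 (SE 0.11). No single one had a raw p below 0.05. *Lum* was at 5.52, 5.16 and 5.73 in controls and at 5.35, 5.44 and 5.24 in knockouts, a difference of -0.13 (SE 0.13, limma adjusted p = 0.698). Its 3 probe sets were lower too, between -0.18 and -0.10, but control 2 was the lowest of all 6 arrays and the gene rested on few, mostly dim, probe sets. The brightest and lowest was 10365985 at -0.18 (SE 0.17), and the highest was 10365986 at -0.10 (SE 0.12).

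*Col6a1* and *Col6a2* encode 2 of the chains of type VI collagen and lie close together on chromosome 10. Neither showed a difference beyond its spread. *Col6a1* was at 7.34, 7.05 and 7.24 in controls and at 7.22, 7.19 and 7.19 in knockouts, so the knockouts lay inside the control range. Its difference was -0.01 (SE 0.07, limma adjusted p = 0.951), with 19 of 31 probe sets lower. *Col6a2* was at 6.42, 6.50 and 6.38 in controls and at 6.29, 6.27 and 6.51 in knockouts, where knockout 3 was the highest of the 6. Its difference was -0.07 (SE 0.07, limma adjusted p = 0.683), with 17 of 28 lower. At *Col6a1* the lowest probe set, 10370229, had groups that do not overlap, 6.18, 5.95 and 6.11 against 5.76, 5.73 and 5.57 (difference -0.39, SE 0.10). The highest, 10370235, was at 0.96 (SE 0.79), where control 3 read 2.87 and the other arrays 4.96 to 6.17. The brightest, 10370239, was at -0.30 (SE 0.21), with knockout 2 at 9.78 and the other 5 arrays between 10.49 and 10.63. At *Col6a2* the brightest, 10370186, was at -0.32 (SE 0.13) and the dim 10370183 at -0.56 (SE 0.26). The highest, 10370209, was at 0.62 (SE 0.71) and at -0.17 without knockout 3.

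*Col13a1* encodes a membrane-spanning collagen of cell contacts, and *Col18a1* the basement membrane collagen whose end fragment is endostatin. *Col13a1* was at 5.90, 5.88 and 5.89 in controls and at 5.77, 5.74 and 5.95 in knockouts. Knockout 3 was above the controls, and the difference was -0.06 (SE 0.06, limma adjusted p = 0.681). The gene mean stands apart from single probe sets here. The brightest, 10369511, read 8.94, 9.14 and 9.13 in controls and 8.62, 8.52 and 8.52 in knockouts, a difference of -0.52 (SE 0.09, limma adjusted p = 0.495). The dim 10369493 differed the other way, at 5.15, 4.51 and 5.21 against 6.13, 5.73 and 5.51, or 0.83 (SE 0.24). Neither pair of groups overlaps. The lowest, 10369522, was at -0.80 (SE 0.44). *Col18a1* was at 5.54, 5.64 and 5.73 in controls and at 5.64, 5.54 and 5.66 in knockouts, a difference of -0.02 (SE 0.06, limma adjusted p = 0.893). Its dim probe set 10370288 read 5.05, 5.41 and 4.76 in controls and 6.06, 5.75 and 6.25 in knockouts, 0.95 (SE 0.20, limma adjusted p = 0.522). The lowest, 10370301, was at -0.71 (SE 0.33) and the brightest, 10370296, at -0.03 (SE 0.16).

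Whether a probe set differed from the rest of its gene was tested with limma's diffSplice. It passed at 0 of the 360 probe sets, against 0.474% of the 52956 probe sets tested. At a raw p below 0.05 there were 17 of 360, against 5.2%, a share near the background. The smallest adjusted p was 0.0804, at 10380422 of *Col1a1*, which was 1.16 lower on the log2 scale than the rest of its gene. A fit with each probe set's own spread, added after seeing the data, called 0 of all 52956 and so 0 of the 360, with 24 of the 360 at a raw p below 0.05 (6.67% against 5.31% of all). Without control 2, diffSplice called 1 of the 360 (10370235 of *Col6a1*), or 0.278%, against 0.349% of all. Without knockout 2 it called 2 (10370209 of *Col6a2* and 10355416 of *Fn1*), or 0.556%, against 0.663% of all. Both shares lay below the background of the same fit.

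The 10 genes did not follow 1 course over the arrays. In *Col1a1*, *Col3a1*, *Col5a2*, *Col6a1*, *Dcn* and *Lum* control 2 was the lowest control, at -0.06 to -0.25 against the mean of the 6 arrays. It was also the lowest control in *Col13a1*, at 0.02, where the 3 controls lay close together. In *Col1a1*, *Col3a1*, *Dcn* and *Lum* control 3 was the highest of all 6 arrays, at 0.27 to 0.34. The same array was the highest in *Fn1*, at 0.17, and in *Col18a1*, at 0.10. In *Col5a2*, *Col6a2* and *Col13a1* the array that stood apart from its group was knockout 3, which was 0.10 to 0.13 above the mean of the 6. Averaged over the 10 genes, the deviations were 0.08, -0.04 and 0.17 in the controls and -0.12, -0.08 and -0.01 in the knockouts, so the order of the arrays was not fully split by group. Without control 2 the differences were -0.43 for *Col1a1*, -0.35 for *Dcn*, -0.28 for *Lum* and -0.27 for *Col3a1*, and -0.21 for *Fn1*. Without control 3, 7 of the 10 were lower, with *Col1a1* at -0.21, *Fn1* at -0.21, *Dcn* at -0.18 and *Col3a1* at -0.08.

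The choice of how to sum up a gene mattered more for some than for others. For *Dcn* the mean of all probe sets, the mean of those above the control features' mark, the median and the brightest gave -0.25, -0.24, -0.23 and -0.19. For *Fn1* they gave -0.23, -0.24, -0.27 and -0.08, and for *Col1a1* -0.30, -0.25, -0.26 and -0.03. For *Col3a1* they gave -0.18, -0.09, -0.29 and -0.003. *Col13a1* ran from -0.52 at its brightest probe set to 0.05 by its median, and *Col18a1* from -0.11 by the mean of its brighter probe sets to 0.09 by its median. The latter pair therefore have no settled direction.

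**Figure D3:**
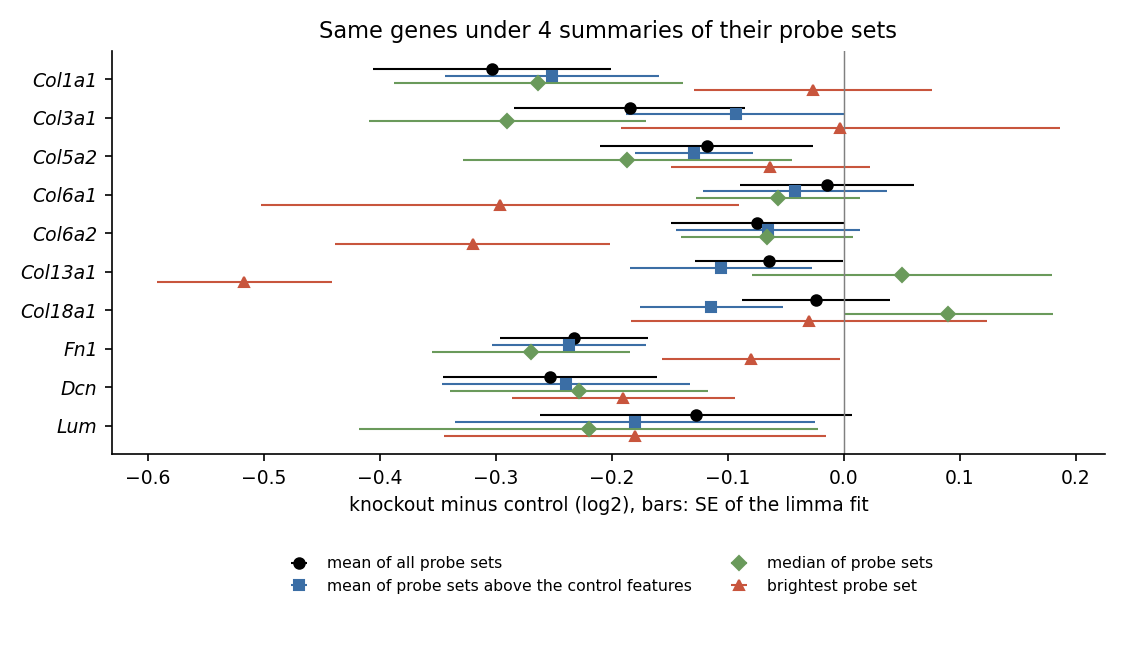
Knockout minus control (x axis, log2) for the 10 genes (y axis) under 4 summaries of a gene's probe sets; bars are the standard error of the limma fit. All 4 markers are left of 0 for every gene other than *Col13a1* and *Col18a1*. Those of *Col13a1* lie between -0.52 and 0.05 and those of *Col18a1* between -0.11 and 0.09. In *Lum* 2 of the 4 markers are the same 1 probe set, the only 1 above the control features' mark.

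The wider matrix pathway was read from lists of genes, of which a part was measured, and 0 genes of any list passed limma's fit of gene means. Measured means present among the 65535 deposited rows. All list genes found there lie on chromosome 1, 10, 11, 12 or 13, so a gene that is missing here may still be on the array. The sizes below are differences of gene means. Of the 7 measured among 37 other collagens, 4 were lower and 3 higher, with a median of -0.00034, and 6 were dim. A raw p below 0.05 was found at 0 of them, against 6.12% of all genes on the lower side and 7.95% on the higher. *Col10a1*, the collagen of growing cartilage, was at -0.14 (SE 0.08), *Col19a1* at 0.05 and the basement membrane chain gene *Col4a4* at -0.06. Of 9 measured among 36 collagen-making enzymes and chaperones, 6 were lower, with a median of -0.02. *Adamts14*, a procollagen-trimming protease, was at -0.12 (SE 0.05), *P4hb*, a subunit of the prolyl hydroxylase, at -0.08 (SE 0.06), and *Mia2*, which acts in the export of large cargo, at 0.05 (SE 0.07) but at -0.037 by its brightest probe set.

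Other small leucine-rich proteoglycans split evenly, with 5 of 10 measured lower and a median of 0.03. The 3 with the smallest raw p were all dim: *Kera* at 0.25 (SE 0.08), *Omd* at 0.30 (SE 0.09) and *Epyc* at -0.14 (SE 0.05). Among 15 measured of 48 other matrix glycoproteins and proteoglycans, 10 were lower, with a median of -0.01. After either normalization 12 were lower, where 57.3% (quantile) and 61.2% (centring) of all genes were. By the brightest probe set of each gene 13 of the 15 were lower, where 57.5% of all genes were. Their median was then -0.127, against -0.13 for the 10 genes. *Efemp1*, the fibulin-family protein fibulin-3, was at 7.98, 7.58 and 8.12 in controls and at 7.40, 7.42 and 7.34 in knockouts. Its groups do not overlap and control 2 was again the lowest control. The difference was -0.51 (SE 0.12, limma adjusted p = 0.214), larger than that of any of the 10 genes. *Hapln1*, a link protein of perineuronal matrix, was at -0.18 (SE 0.04) and *Sparc*, a collagen-binding protein, at -0.18 (SE 0.05), both with groups that do not overlap.

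Of 9 measured matrix receptors 7 were lower, with a median of -0.05. They include *Itgb8*, an integrin chain, at -0.12 (SE 0.05), *Mrc2*, the receptor that takes up collagen, at -0.14 (SE 0.06), and *Gpc1* at -0.12 (SE 0.06). Of 11 measured matrix proteases and inhibitors 8 were lower, with a median of -0.06. *Serpinf1*, which encodes the secreted protein PEDF, was at -0.26 (SE 0.11) and *Serpine2*, a protease inhibitor, at -0.11 (SE 0.06). The dim *Mmp19* was at -0.19 (SE 0.07), but at 0.19 by its brightest probe set. Among TGF-beta signalling and matrix-inducing factors 6 of 9 measured were higher, with a median of 0.05. Without control 2, 5 of the 9 were lower (median -0.00033). With only probe sets above the control features' mark, 4 of 8 were lower. The dim *Ccn6* was at 0.19 (SE 0.07), *Tgfb3* at -0.09 (SE 0.05) and *Tgfb2* at -0.10 (SE 0.06). The limma adjusted p of every gene in these lists was at least 0.214.

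**Figure D4:**
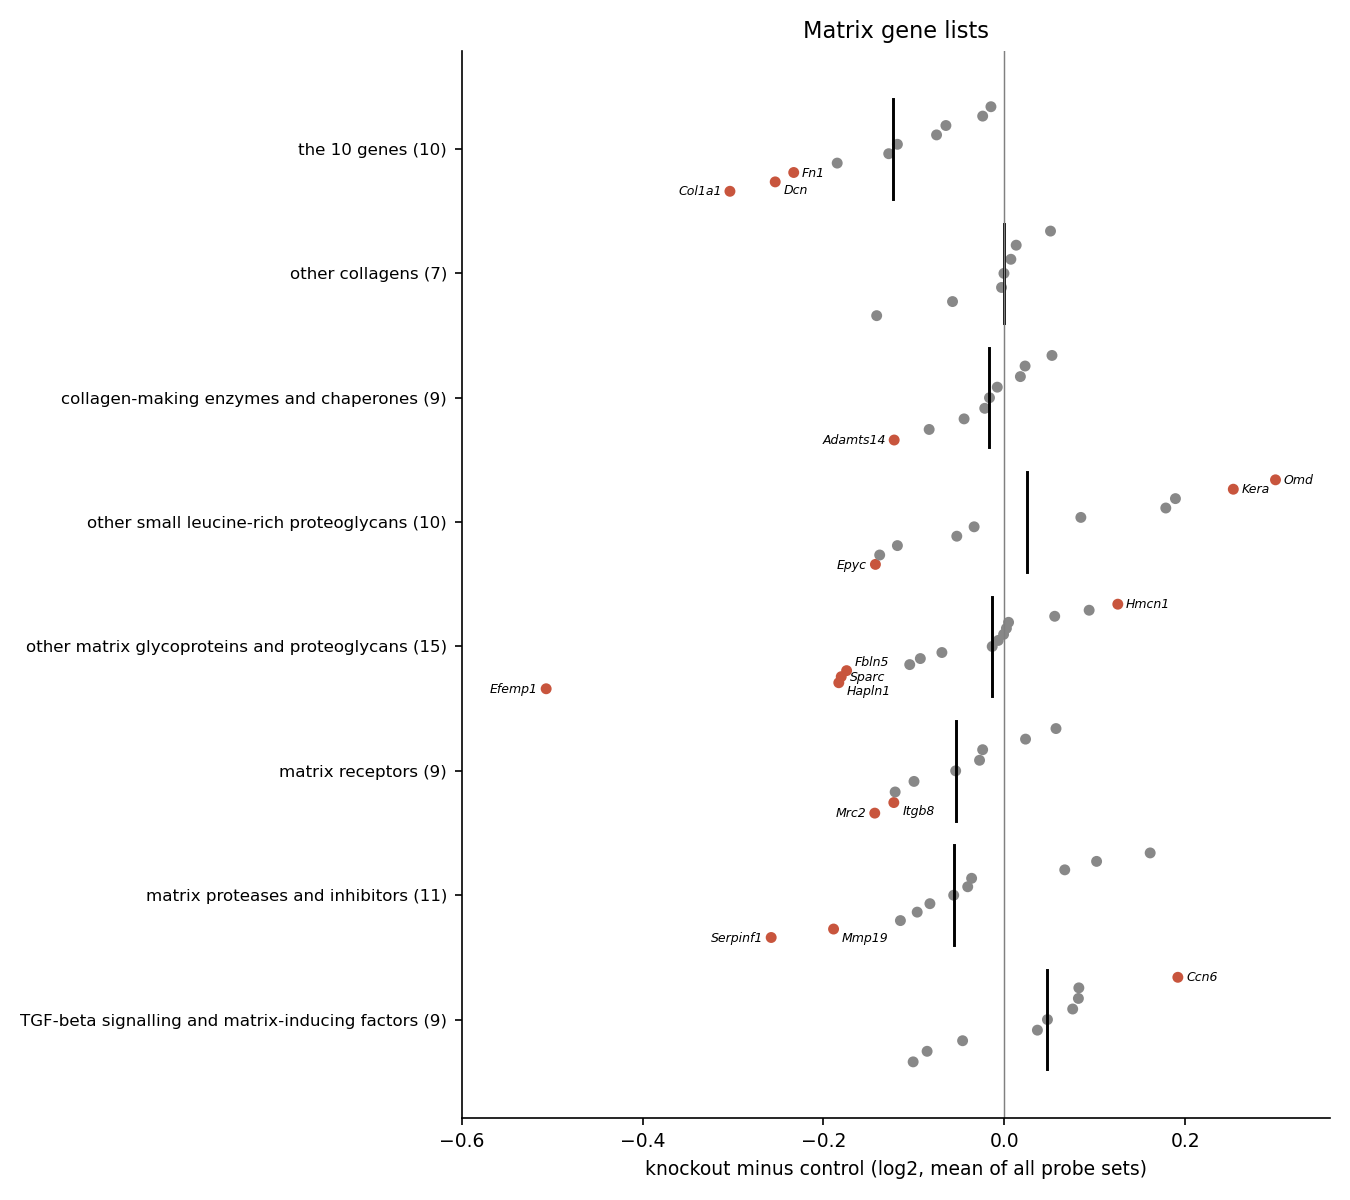
Knockout minus control (x axis, log2, mean of all probe sets) for each measured gene of the 10 genes and of 7 matrix lists (y axis, number measured in brackets); black bars are medians and red, named points have a raw limma p below 0.05. The bar of the 10 genes is at -0.12, and the bars of the other lists lie between -0.06 and 0.05. This gap depends on the summary. By brightest probe sets the median was -0.127 for other matrix glycoproteins and proteoglycans and -0.13 for the 10 genes.

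Markers of the cells that make this matrix were read from a list of their own. Of 22 genes chosen for meningeal and perivascular fibroblasts 6 were measured, of which 5 were lower, with a median of -0.05, and 2 were dim. Without control 1, 3 of the 6 were lower (median -0.016), and without knockout 3 also 3 (median -0.029). On the lower side 1 had a raw p below 0.05, against 6.12% of all genes, and 0 on the higher side, against 7.95%. *Slc47a1*, a transporter of meningeal cells, was at 6.09, 6.0 and 6.27 in controls and at 5.56, 5.54 and 6.02 in knockouts, a difference of -0.41 log2 units (SE 0.13, limma adjusted p = 0.258). Knockout 3 stood with the controls. The summed signal of the 6 was between 8.88 and 8.97 on the log2 scale in controls and between 8.79 and 8.90 in knockouts. Its part in the result was not tested.

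Markers of other cell types did not share 1 direction. Mural cells (4 of 13 measured) had 2 genes lower and 2 higher, with a median of 0.02. The 2 higher, *Des* and *Higd1b*, were dim. With only probe sets above the control features' mark, 3 of 3 were lower (median -0.098), where 52.0% of all genes were. On the lower side *Rgs5* was at -0.10 (SE 0.08), or 0.0067 by its brightest probe set. The summed signals were 10.3 to 10.4 in controls and 10.3 in knockouts. For endothelium only *Pecam1* of 22 was measured, at 0.06 (SE 0.06), with 6.75 to 6.91 in controls and 6.83 to 6.95 in knockouts. Choroid plexus epithelium (3 of 13) had 2 genes lower and 1 higher, with a median of -0.01. The higher 1 was *Kcnj13* at 0.21 (SE 0.07). The sums were 9.36 to 9.40 in controls and 9.35 to 9.54 in knockouts. The 2 measured of 13 for oligodendrocytes split, 1 lower and 1 higher, with a median of 0.05; *Aspa* was at 0.16 (SE 0.07) and the sums were 10.4 to 10.5 in both groups. The 2 measured of 11 for neurons also split, 1 lower and 1 higher, with a median of 0.01, *Syt1* at 0.05 (SE 0.05) and sums of 12.1 to 12.2 in both groups. Astrocytes (6 of 11) had 4 genes lower and 2 higher, with a median of -0.08 and *S100b* at -0.21 (SE 0.07). Their sums were 12.8 to 12.9 in controls and 12.7 to 12.8 in knockouts. The 2 of 12 measured for microglia and macrophages were lower, with *Cd68* at -0.41 (SE 0.20) and sums of 7.99 to 8.19 and 7.22 to 8.05. Knockout 2 was the lowest of the 6 arrays in both genes. Without it 1 of the 2 was lower (median -0.0019), and without control 1 also 1 (median -0.18). *Cd68* ran from -0.57 to -0.15 without 1 array. The dim red cell gene *Slc4a1*, the 1 measured of 7, was at -0.36 (SE 0.07) but at 0.24 by its brightest probe set, with 5.24 to 5.47 in controls and 4.89 to 5.06 in knockouts. No marker of these lists passed limma's fit, and the part of these cells in the values of the 10 genes was not tested.

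The genes whose course over the 6 arrays was most like the average of the 10 were sought among 2974 other genes above the control features' mark. By Pearson's r these were *Bloc1s1* (0.994), *Igfbp5* (0.989), *Csrp2* (0.983), *Ostm1* (0.980) and *Sdf2* (0.978), and 79 of the 2974 had an r above 0.9. The r values describe 6 arrays of 2 groups and carry no test. *Igfbp5*, a binding protein of insulin-like growth factors, was at 9.29, 9.13 and 9.38 in controls and at 9.09, 9.10 and 9.15 in knockouts. Control 2 was nearest to the knockouts, and the difference was -0.15 (SE 0.07, limma adjusted p = 0.368). As the gene was chosen by its r, this course and direction follow from the choice.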

How the data were processed

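The authors deposited log2 signals per probe set for 6 arrays, 3 a group. The scale was read from the values (1.69 to 14.41); MAS5 is named in the submitters' processing notes, and the build and scaling are not given in the sources used here. Of 65535 rows, 6616 with IDs below the first annotated one were taken as control features and left out. Of the other 58919, 53644 had 1 symbol, 877 several and 4398 none. Symbols were updated through RefSeq (GRCm38.p6): of 5032, 4321 were current, 698 updated and 13 kept. As array medians differed by 0.05, under the limit of 0.1, nothing was renormalized. Knockout minus control was fitted with limma 3.58.1 (R 4.3.3), two-sided, over all probe sets and over gene means, with Benjamini-Hochberg adjustment and a threshold of 0.05; 3 arrays against 3 limit the precision, and as nothing says the arrays are separate animals, p-values reflect array-to-array spread that may be technical. The fits were tested on simulated data. diffSplice pools the spread of a gene's probe sets and made many false calls there, so a fit with each probe set's own spread was added. Replicate numbers did not pair arrays: same-numbered deviations correlated at 0.04, -0.07 and -0.10.

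The 10 genes, the lists and the tests were chosen with earlier results of these data known. Named were all 10 genes, in each the brightest, highest and lowest probe set and those with a raw p below 0.01, up to 3 genes of smallest raw p per list (1 per cell type list here), and the 5 genes most alike. Alternatives were normalization, the filter on dim probe sets, variance model, array weights, replicate block, arrays left out, threshold, control features and gene summary.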

Additional observations from a re-analysis of the deposited data

How the results depend on the processing

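The alternatives for diffSplice were chosen after seeing the data. Of all 58919 probe sets 3 passed. The replicate block, which is no pairing the data bear out, left 0, and leaving out 1 array gave 0 to 4. Trend and robust moderation gave 21, a filter that dropped the dimmest 1 in 3 gave 19, quantile normalization gave 6, and centring, array weights and a threshold of 0.1 each gave 7. The cause was not tested. The count was 0 for the 360 probe sets and for the 10 gene means under each of these, and 0 of 5017 gene means passed under each. diffSplice called 1 of the 360 (0.278%) at an adjusted p below 0.1, against 0.672% of all 52956, and 0 to 2 (at most 0.556%) without 1 array, against 0.349% to 0.663% of all. The smallest limma adjusted p among the 10 gene means was 0.116, for *Fn1* with trend and robust moderation.

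Of 150 values of the 10 gene means under alternatives, 142 kept their sign. *Col1a1*, *Col3a1*, *Col5a2*, *Col6a2*, *Fn1* and *Dcn* kept theirs in all 15 each. Turned signs were 0.05 for *Col13a1* by the median of its probe sets, 0.09 for *Col18a1* by the median and 0.022 with array weights. Without 1 array, *Col18a1* ran from -0.071 to 0.022, *Col6a1* from -0.095 to 0.05 and *Lum* from -0.28 to 0.0033. Among 444 values of list genes 437 kept their sign. *Mmp19* turned to 0.19 by its brightest probe set, by those above the control features and without the dimmest 1 in 3, *Slc4a1* to 0.24, *Rgs5* to 0.0067 and *Mia2* to -0.037 by their brightest, and *Mia2* ran from -0.0015 to 0.091 without 1 array. Of 404 values of single probe sets 394 kept their sign. Those that turned without 1 array were 10380457 of *Col1a1* (-0.11 to 0.047), 10346050 (-0.14 to 0.17) and 10346064 (-0.45 to 1.06) of *Col3a1*, 10370209 of *Col6a2* (-0.17 to 1.16) and 10370296 of *Col18a1* (-0.14 to 0.09); 10346050 was also at 0.018 with array weights. The number of arrays and dim signal, in 145 of 360 probe sets, limit what can be told.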
